A study of Mus musculus with 6 samples.

Results

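The genes described here are 48 enzymes of purine and pyrimidine metabolism, chosen by name from the steps of synthesis, salvage, interconversion and breakdown. All 48 were found among the 56305 genes of the table by symbol, and all 48 passed the filter on low values (20 normalized counts in 3 livers or more) that left 15430 genes to test. The table holds 3 WT and 3 Vps15LKO livers, 1 library each, taken at ZT6 from male mice 5 weeks old that fed ad libitum. Vps15LKO mice are AlbCre+;Vps15 f/f animals, in which Cre under the albumin promoter deletes Vps15, the regulatory subunit of class 3 PI3K, chronically in the liver. The controls are labelled WT, and the sources used here do not give their Vps15 or Cre alleles for this line. Cell types that do not use the albumin promoter keep Vps15 and contribute RNA to the whole-liver libraries. Nothing in the labels says more about how the replicates were taken, so p-values measure the spread between these livers only.

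Cells build purines on phosphoribosyl pyrophosphate (PRPP) to reach inosine monophosphate (IMP), from which the AMP and GMP branches depart. Pyrimidines are made as a free ring that is then joined to PRPP, giving UMP and later CTP. The liver supplies nucleosides to other tissues and also degrades them, purines to uric acid and, in mice, on to allantoin, and pyrimidines to beta-amino acids, in enzymes that are abundant in hepatocytes. Salvage enzymes return free bases and nucleosides to nucleotides.

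The libraries held between 16137093 and 18110223 reads on genes. The deposited values are read counts divided by 1 DESeq2 size factor per library, called normalized counts here, with size factors of 0.742 to 0.801 for WT livers against 1.23 to 1.41 for Vps15LKO livers. Fold changes are Vps15LKO minus WT on the log2(normalized count + 1) scale, tested with limma and adjusted over all 15430 genes with the Benjamini-Hochberg method. A call needs an adjusted p below 0.05 and a change of 1.2-fold or more. The added 1 understates the change of genes with low values. Scaling each library by its total reads instead shifts the all-gene median of the log2 fold changes up by 0.72, so values under that scaling are given where they turn a direction. Pik3r4, the gene of Vps15, had 508, 573 and 459.7 in WT against 341, 362 and 355 in Vps15LKO livers (log2 fold change −0.54, standard error 0.11, adjusted p = 0.0021, and 0.19 with total-read scaling). In embryonic fibroblasts, the paper reports that recombination of this locus leaves a truncated Vps15 protein. Counts over the whole gene can include reads from what remains, so these values do not measure the deletion. As to the labelled tissue, the 10 hepatocyte markers summed to 3305795 to 3705599.5 in WT and 1022993 to 1526799.8 in Vps15LKO livers, and no WT value of any of them overlapped the Vps15LKO values. Of these 10 markers, 8 were called lower (Alb and Trf were not), with a median log2 fold change of −1.67. In whole liver, fewer hepatocytes and less RNA per hepatocyte cannot be told apart. Markers of other cells moved with genotype as well. Of the 9 cholangiocyte and progenitor markers 8 were tested and called higher (summed, 682 to 836 in WT and 12393 to 23564 in Vps15LKO livers), as were 10 of 10 stellate cell and fibroblast markers (7095 to 7597 in WT and 30561 to 36135 in Vps15LKO livers), 9 of 11 macrophage markers, with 1 lower (8765 to 9789 in WT and 25318 to 30200.1 in Vps15LKO livers) and 10 of 10 proliferation genes (618 to 950.3 in WT and 4290.2 to 4671 in Vps15LKO livers). Further, 7 of 8 T and NK cell markers (112 to 122 in WT and 354 to 435 in Vps15LKO livers) and all 3 tested of 6 neutrophil markers (13.5 to 21.2 in WT and 195 to 263 in Vps15LKO livers, with Ly6g and Mpo at 0 in all WT livers) were higher, while 4 of 9 endothelial markers were lower and 4 higher (7577 to 8368 in WT and 6691 to 8334 in Vps15LKO livers), and 1 of 2 tested among 5 B cell markers was higher (72.9 to 117 in WT and 75.0 to 108 in Vps15LKO livers). By these WT sums, the 3 tested neutrophil markers passed the filter only through the Vps15LKO livers, so their calls are no support for a rise. The WT sums of the T and NK cell markers are also too low for all 8 to reach 20 normalized counts there. The part of these cell types and of proliferation in the results below was not tested.

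Of the 48 nucleotide genes, 20 fell and 14 rose in Vps15LKO liver, while 14 were not called. Of the 14 that rose, Dctd reached the filter only in the Vps15LKO livers, where it was high. As a share, 41.7% were called lower and 29.2% higher, beside 33.0% and 33.5% of all genes tested, and the median log2 fold change was −0.19, beside −0.02 for all genes tested. Together, 70.8% of the nucleotide genes were called, beside 66.5% of all genes, and 38 (79.2%) had no overlap between genotypes, beside 73.2%. These were 23 lower (beside 36.8% of all genes) and 15 higher (beside 36.4%). The genotype difference in this pathway was thus about as widespread as in the rest of the transcriptome, and the results below concern which steps moved and by how much. With total-read scaling, 12 genes were lower and 30 higher, beside 11.1% and 66.8% of all genes. All 14 risen genes rose under that scaling too, and of the 20 fallen genes 12 stayed lower, 5 were not called and 3 (Gart, Impdh2 and Dguok) were called higher. Of the 14 genes not called, 13 were called higher under that scaling, all but Ada. With edgeR on the recovered reads, 22 genes were lower and 14 higher.

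**Figure D1:**
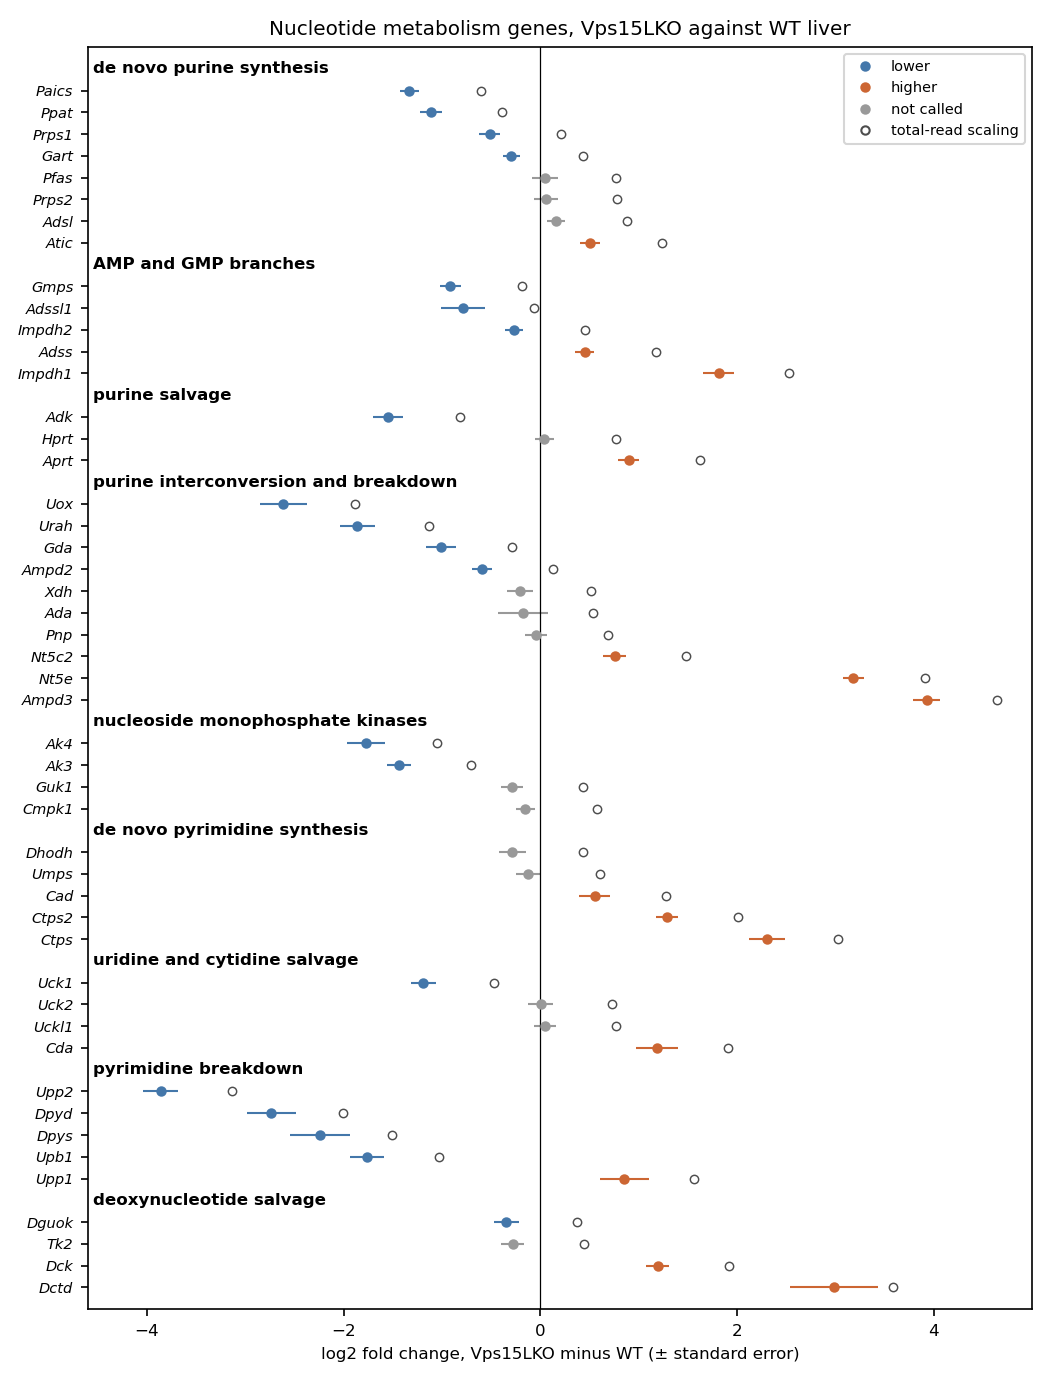
Log2 fold change (Vps15LKO minus WT, x axis) of the 48 nucleotide genes by pathway step, n = 3 livers per genotype. Filled points with standard error are the limma values, coloured by call, and open points are the values under total-read scaling, which lie about 0.72 to the right. The pyrimidine breakdown genes other than Upp1 lie far to the left under both scalings, and Ampd3 and Nt5e far to the right.

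In de novo purine synthesis, 4 of 8 genes were called lower, 1 higher and 3 not at all, with a median log2 fold change of −0.12. Of all genes tested, 33.0% were lower and 33.5% higher. With total-read scaling 2 of the 8 were lower and 5 higher, beside 11.1% and 66.8% of all genes. The genes of the committed step and of a later bifunctional enzyme fell, and the gene of the final steps rose. Ppat, whose product commits PRPP to the purine pathway, had 464, 557 and 576 in WT against 244, 249 and 243 in Vps15LKO livers, in normalized counts (log2 fold change −1.11, standard error 0.11, adjusted p = 4.1e-05). Paics, whose product carries out the carboxylation and SAICAR synthesis steps, had 4837, 4219 and 4390.5 in WT against 1725, 1912 and 1709 in Vps15LKO livers (log2 fold change −1.33, standard error 0.10, adjusted p = 9.6e-06). Both genes had every Vps15LKO value below every WT value, and with total-read scaling both stayed lower, at log2 fold changes of −0.39 and −0.60. Prps1, a PRPP synthetase, had 522, 511 and 437 in WT against 347, 358 and 320.4 in Vps15LKO livers (log2 fold change −0.52, standard error 0.11, adjusted p = 0.0025), and turned to 0.21, without a call, under total-read scaling. Its paralog Prps2 had 296, 325 and 260.2 in WT against 311, 329 and 277 in Vps15LKO livers, which overlapped (adjusted p = 0.69). Gart, a trifunctional enzyme of the early ring steps, had 510.5, 565 and 542 in WT against 423, 458 and 438 in Vps15LKO livers, and an antisense gene overlaps 19.7% of its exons. It was called lower (log2 fold change −0.29, adjusted p = 0.018) but higher with total-read scaling (0.43), and it lost the call without WT replicate 2 (−0.26) and without Vps15LKO replicate 1 (−0.27), and with TMM (−0.25) and upper-quartile scaling (−0.17). Pfas and Adsl, of intermediate steps, were not called, and only Adsl had groups that did not overlap. Pfas had 121, 139.9 and 152 in WT against 150.4, 137 and 139 in Vps15LKO livers (adjusted p = 0.76). Adsl had 316, 314 and 313 in WT against 348, 331 and 375 in Vps15LKO livers (adjusted p = 0.17). Prps2, Pfas and Adsl were called higher with total-read scaling (0.78, 0.77 and 0.89), and Adsl also with upper-quartile scaling (0.28). Atic, whose bifunctional enzyme closes the ring to give IMP, had 513, 577 and 612 in WT against 793, 768 and 858 in Vps15LKO livers (log2 fold change 0.51, standard error 0.10, adjusted p = 0.0019), with no overlap.

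**Figure D2:**
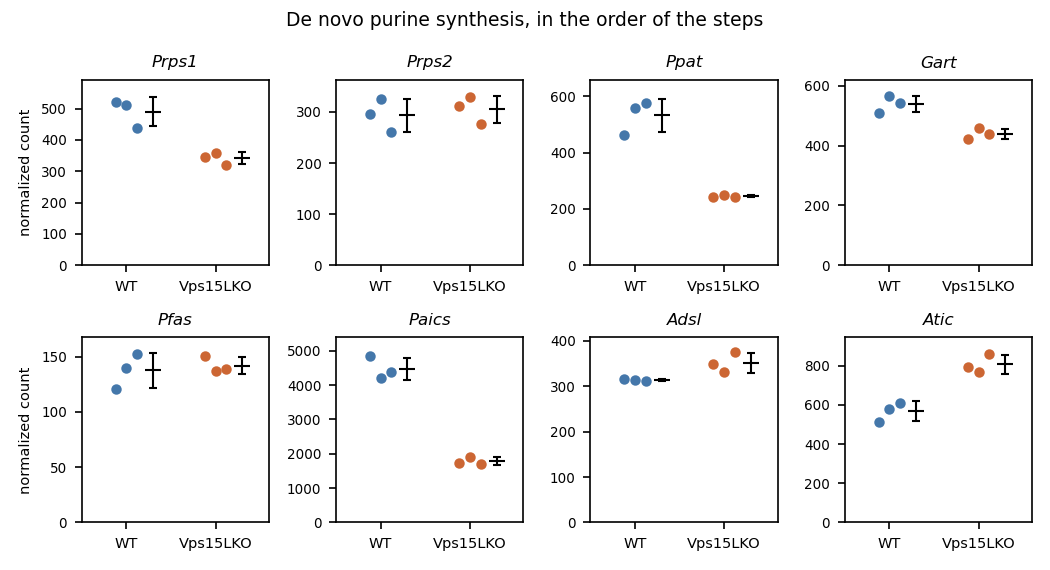
Normalized counts (y axis, from 0) of the 8 genes of de novo purine synthesis in each liver, with the mean and SD of 3 livers beside the points. Ppat and Paics are lower in every Vps15LKO liver than in any WT liver, Atic is higher in every Vps15LKO liver, and Prps2 and Pfas overlap.

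Ppat and Paics lie head to head on chromosome 5 from 76913249 to 76951578 (minus strand) and from 76951307 to 76967509 (plus strand) of GRCm38, and share 272 bp of exon. Reads in those 272 bp, which are 6.15% of the exons of Ppat and 8.67% of those of Paics, cannot be assigned without strand. Whether counting used strand is not given in the sources used here. The Paics to Ppat ratio of normalized counts per kb of exon was 14.7, 10.7 and 10.7 in WT against 9.97, 10.8 and 9.92 in Vps15LKO livers, with WT replicate 1 above the other 5 livers. RefSeq promoter windows (GRCm38.p6, from upstream of a start to shortly after it) were found for 44 of the 48 genes, in 70 windows, and not for Dhodh, Dpys, Pfas and Xdh. Windows were searched on both strands for the E-box CACGTG, the site bound by Bmal1–Clock, and for the D-box TTACGTAA or TTATGTAA (TTACATAA on the other strand), the site of Dbp and its relatives. The E-box letters stood in 6 of the 70 windows (8.57%), beside 7.15% of all 32817 windows, and TTACGTAA stood in 3 overlapping windows of 1 gene, Ak4, beside 0.119% of all windows. No match of one motif overlapped a match of the other. TTATGTAA stood in no window of these genes, beside 0.935% of all windows. The 30 bases around each match are shown because the study concerns Bmal1 and the genes that carry the letters moved in both directions. They run 5′ to 3′ on the strand of the gene, with the motif in capitals.
Paics: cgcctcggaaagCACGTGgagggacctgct
Atic: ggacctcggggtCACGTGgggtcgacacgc
Impdh2: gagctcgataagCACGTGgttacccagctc
Ampd3: ccagcagtgggtCACGTGtcagctctgtaa
Nt5c2: cactttgcttccCACGTGggtactgattaa
Ak4 E-box: tcccactctgccCACGTGcggggaccggca
Ak4 D-box: cggctcccggcTTACGTAAgaagcagcgag
The positions are chr5:76951087-76951116 for Paics, chr1:71557137-71557166 for Atic, chr9:108560314-108560343 for Impdh2, chr7:110772514-110772543 for Ampd3, chr19:46969745-46969774 (minus strand) for Nt5c2, and chr4:101419477-101419506 (E-box) and chr4:101419262-101419291 (D-box) for Ak4, the others on the plus strand. Counted from the start site, the motif begins at −203 in Paics, −7 in Atic, −110 in Impdh2, −78 at 1 of the starts of Ampd3, −194 at 1 of the starts of Nt5c2 and −214 at 1 of the starts of Ak4, whose D-box begins at −16 of another start. The E-box upstream of Paics lies in the first exon of Ppat, 15 bp before its first coding base in GENCODE release M21. The E-box genes were 3 of 19 genes called lower (Paics, Ak4 and Impdh2, the last called higher with total-read scaling), 3 of 14 called higher (Atic, Ampd3 and Nt5c2) and 0 of 11 not called. These matches are letters in a window, and binding was not analysed here.

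From IMP, the AMP branch runs through adenylosuccinate synthase and the GMP branch through IMP dehydrogenase and GMP synthetase. Adss and Impdh1 rose, and Adssl1, Impdh2 and Gmps were called lower, of which 0 kept the call with total-read scaling. Adss, the broadly expressed adenylosuccinate synthase, had 770.4, 744 and 855 in WT against 1136, 1095 and 1007 in Vps15LKO livers, in normalized counts (log2 fold change 0.45, standard error 0.09, adjusted p = 0.0027). Adssl1, the muscle-type isozyme, had 431, 486 and 256 in WT against 231, 237 and 189 in Vps15LKO livers, with a wide spread in WT livers. It was called lower (log2 fold change −0.79, adjusted p = 0.014) but lost the call without WT replicate 1 (−0.69) and without WT replicate 2 (−0.60), and was not called with total-read scaling (−0.06). Impdh1, an IMP dehydrogenase, had 65.0, 67.5 and 76.8 in WT against 218, 232 and 298 in Vps15LKO livers (log2 fold change 1.81, standard error 0.16, adjusted p = 2.1e-05), a 3.51-fold rise. Impdh2, the isozyme that predominates in WT liver by counts per kb, had 442, 483 and 435 in WT against 359, 379 and 390.4 in Vps15LKO livers and was called lower near both thresholds (log2 fold change −0.27, adjusted p = 0.032), but higher with total-read scaling (0.46). Its call was also lost with TMM (−0.23) and upper-quartile scaling (−0.14), in DESeq2 and without WT replicate 2 (−0.22), Vps15LKO replicate 1 (−0.23) or Vps15LKO replicate 2 (−0.27). Gmps, the GMP synthetase, had 1033, 877 and 903 in WT against 457, 548 and 487 in Vps15LKO livers (log2 fold change −0.91, standard error 0.11, adjusted p = 0.0001), a fall that was not called with total-read scaling (−0.19).

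Of the 3 purine salvage genes, Adk fell, Aprt rose and Hprt was not called. Adk, the adenosine kinase, an abundant hepatocyte enzyme, had 10011, 9571 and 8089 in WT against 3093, 3746 and 2675 in Vps15LKO livers, in normalized counts (log2 fold change −1.55, standard error 0.15, adjusted p = 3.7e-05), and −0.83 with quantile normalization. Aprt, which salvages adenine, had 504, 415 and 411 in WT against 833, 834 and 801 in Vps15LKO livers (log2 fold change 0.90, standard error 0.10, adjusted p = 9.9e-05), an increase in every Vps15LKO liver over any WT liver. Hprt, which salvages hypoxanthine and guanine, had 768, 671 and 685 in WT against 792, 694 and 700.2 in Vps15LKO livers, with overlapping groups (adjusted p = 0.73). Total-read scaling called Hprt higher (0.77).

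On the log2(normalized count + 1) scale, the largest rises among the 48 genes were those of Ampd3 and Nt5e, both in AMP breakdown. Dctd, with few reads in WT liver, was close to Nt5e, and in DESeq2 the log2 fold changes were 3.24 for Dctd and 3.20 for Nt5e. Ampd3, the erythrocyte-type AMP deaminase, which converts AMP to IMP, lies on chromosome 7 from 110768206 to 110812405 and had 41.1, 46.2 and 40.4 in WT against 705, 563 and 731 in Vps15LKO livers, in normalized counts. This was a 15.2-fold rise (log2 fold change 3.93, standard error 0.14, adjusted p = 3.5e-07), and 2.33% of all tested genes had a larger log2 fold change. Ampd2, the AMP deaminase that prevails in WT liver, had 798, 711 and 705 in WT against 451, 505 and 511 in Vps15LKO livers (log2 fold change −0.59, adjusted p = 0.0007), turning to 0.13 without a call under total-read scaling. Nt5e, the cell-surface 5′-nucleotidase CD73, which makes adenosine from extracellular AMP, lies on chromosome 9 from 88327197 to 88372092 and had 188, 171 and 173 in WT against 1817, 1635 and 1428 in Vps15LKO livers. Its rise was 9.09-fold (log2 fold change 3.18, standard error 0.11, adjusted p = 3.3e-07). The Nt5e to Adk ratio per kb, of the enzyme that forms adenosine outside the cell to the one that phosphorylates it inside, was 0.0186, 0.0177 and 0.0211 in WT against 0.582, 0.433 and 0.529 in Vps15LKO livers, a ratio chosen after the values were seen and given without a test. Nt5c2, the cytosolic nucleotidase for IMP and GMP, had 345, 321 and 269.6 in WT against 538, 487 and 553 in Vps15LKO livers (log2 fold change 0.76, standard error 0.12, adjusted p = 0.00051). As a reference for red cells, which carry Ampd3, the erythroid markers summed to 6603 to 8874 in WT and 5447 to 7568 in Vps15LKO livers, and Hba-a1, Hbb-bs and Hbb-bt were not called, while Alas2, which makes heme in erythroid cells, was lower (−3.06).

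**Figure D3:**
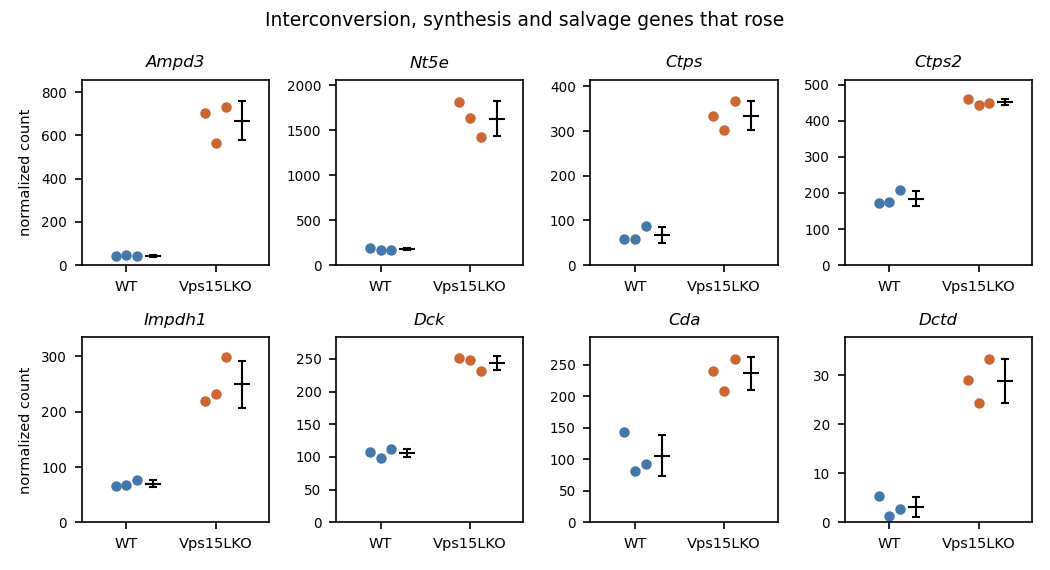
Normalized counts (y axis, from 0) of 8 risen genes (Ampd3, Nt5e, Ctps, Ctps2, Impdh1, Dck, Cda and Dctd) in each liver, with the mean and SD of 3 livers beside the points. In all 8 genes every Vps15LKO value lies above every WT value, and Dctd reached 20 normalized counts only in the Vps15LKO livers.

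In purine breakdown, the genes that dispose of uric acid fell while the gene that makes it was not called. Xdh, the xanthine oxidoreductase, had 3857, 4549 and 3588 in WT against 3453, 3946 and 3005 in Vps15LKO livers, in normalized counts, with overlapping groups (log2 fold change −0.21, adjusted p = 0.21). Its direction depended on the scaling, since it was called higher with total-read scaling (0.52) and quantile normalization (0.39). Uox, the urate oxidase that mice keep and humans lack, lies on chromosome 3 from 146570426 to 146632305 and had 44858, 41667 and 31666 in WT against 6641, 8395 and 4621 in Vps15LKO livers. It fell 6.12-fold (log2 fold change −2.61, standard error 0.24, adjusted p = 2.8e-05), and its log2 fold change was −1.89 with total-read scaling and −1.52 with quantile normalization. Urah, which hydrolyses the product of Uox, had 5626, 4654 and 5090.1 in WT against 1378, 1836 and 1094 in Vps15LKO livers (log2 fold change −1.86, standard error 0.18, adjusted p = 3.5e-05), although an antisense gene overlaps 12.4% of its exons. Urad, the decarboxylase of the next step and not among the 48, had 764, 688 and 875 in WT against 161, 190.4 and 128 in Vps15LKO livers (log2 fold change −2.28, adjusted p = 7.2e-06). The Xdh to Uox ratio per kb, also chosen after the values were seen, was 0.0469, 0.0596 and 0.0618 in WT against 0.284, 0.256 and 0.355 in Vps15LKO livers, and it does not depend on the size factors. Gda, the guanine deaminase, had 481, 576 and 373 in WT against 228, 249 and 223 in Vps15LKO livers (log2 fold change −1.01, adjusted p = 0.0005), which was not called with total-read scaling (−0.28). Pnp, the purine nucleoside phosphorylase, had 1394, 1207 and 1289 in WT against 1123, 1411 and 1255 in Vps15LKO livers, with no call (adjusted p = 0.75), and it shares 18.0% of its exons with Gm49342 on the same strand and is a paralog of the neighbouring Pnp2, so its reads are uncertain. Ada, the adenosine deaminase, was low, with 71.6, 47.5 and 37.7 in WT against 47.3, 39.7 and 47.4 in Vps15LKO livers, and was not called (adjusted p = 0.57), though quantile normalization called it lower (−0.78).

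Of the 4 nucleoside monophosphate kinases, the mitochondrial pair fell. Ak3, which uses GTP to phosphorylate AMP in the matrix, had 9862, 9544 and 8486 in WT against 3465, 3796 and 3066 in Vps15LKO livers, in normalized counts (log2 fold change −1.44, standard error 0.12, adjusted p = 1.8e-05, and −0.72 with quantile normalization), with 13.8% of its exons shared with Cdc37l1 on the other strand. Ak4, its close relative, had 1474, 1506 and 976 in WT against 428, 412 and 306 in Vps15LKO livers (log2 fold change −1.77, standard error 0.19, adjusted p = 6.8e-05). Guk1, the guanylate kinase, had 412, 321 and 361 in WT against 291, 294 and 306 in Vps15LKO livers, which did not overlap but missed the threshold (adjusted p = 0.052), while edgeR called it lower and total-read scaling higher (0.44). Cmpk1, the UMP and CMP kinase, had 1034, 1102 and 1206 in WT against 1036, 1049 and 921 in Vps15LKO livers and was not called (adjusted p = 0.2), while total-read scaling called it higher (0.57).

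De novo pyrimidine synthesis had 3 of its 5 genes called higher and 0 lower, beside 33.5% and 33.0% of all genes tested, and all 5 higher with total-read scaling, beside 66.8%. The 3 genes lie at the entry of the pathway and at CTP. Cad, the trifunctional enzyme of the entry steps, had 195, 206 and 288 in WT against 305, 333 and 362 in Vps15LKO livers, in normalized counts (log2 fold change 0.55, standard error 0.16, adjusted p = 0.014), and it lost the call without WT replicate 1 (0.45), WT replicate 2 (0.49) or Vps15LKO replicate 3 (0.49). Dhodh, the mitochondrial dehydrogenase, had 143, 129.9 and 129 in WT against 98.5, 122 and 111 in Vps15LKO livers and was not called (adjusted p = 0.097). Umps, which completes UMP, had 643, 637 and 524 in WT against 555, 606 and 494 in Vps15LKO livers, overlapping between genotypes (adjusted p = 0.39). Under total-read scaling both were called higher (0.44 and 0.60), while quantile normalization called Dhodh lower (−0.67). Ctps, a CTP synthetase, lies on chromosome 4 from 120539868 to 120570276 and had 58.3, 57.5 and 87.6 in WT against 334, 302 and 368 in Vps15LKO livers, a 4.96-fold rise (log2 fold change 2.31, standard error 0.18, adjusted p = 1.3e-05). Ctps2, its X-linked paralog, had 171, 174 and 208 in WT against 459.7, 443 and 448 in Vps15LKO livers, a 2.45-fold rise (log2 fold change 1.29, standard error 0.11, adjusted p = 2.0e-05). In both genes the groups did not overlap. The proliferation genes, whose cells need CTP and deoxynucleotides, were also 10 of 10 called higher, as given above, and their part in these rises was not tested.

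Pyrimidine breakdown had 4 of 5 genes lower and 1 higher, beside 33.0% and 33.5% of all genes tested. Its median log2 fold change of −2.24 was the lowest of the 9 pathway steps. All 4 genes stayed lower with total-read scaling, between −3.13 and −1.03, beside 11.1% of all genes called lower under that scaling. Summed, the 5 genes came to 25724 to 36469 normalized counts in WT against 3946 to 6543 in Vps15LKO livers. Upp2, the liver uridine phosphorylase that opens the pathway, lies on chromosome 2 from 58567298 to 58792971 and had 11759, 13217 and 9497 in WT against 1008, 677 and 702 in Vps15LKO livers, in normalized counts. It fell 14.5-fold (log2 fold change −3.86, standard error 0.18, adjusted p = 1.1e-06), and 0.674% of all tested genes had a lower log2 fold change. Dpyd, the rate-limiting dehydrogenase of uracil and thymine, had 10280.1, 11211 and 6821 in WT against 1521, 1765 and 994 in Vps15LKO livers (log2 fold change −2.73, standard error 0.24, adjusted p = 2.5e-05). Dpys, the dihydropyrimidinase, had 5607, 5396 and 3897 in WT against 1036, 1666 and 649 in Vps15LKO livers (log2 fold change −2.24, standard error 0.30, adjusted p = 0.00024). Upb1, the beta-ureidopropionase that ends the pathway, had 7380.2, 6606 and 5482 in WT against 1905, 2370.3 and 1523 in Vps15LKO livers (log2 fold change −1.76, standard error 0.18, adjusted p = 4.4e-05). None of these 4 genes had overlapping groups, and WT replicate 3 was the lowest WT liver in each. Upp1, the other uridine phosphorylase, rose from a low level, with 50.4, 38.7 and 27.0 in WT against 64.1, 64.0 and 78.5 in Vps15LKO livers (log2 fold change 0.85, standard error 0.25, adjusted p = 0.014), but it was not called with quantile normalization (0.24) or without Vps15LKO replicate 3 (0.76). Per kb and summed, the breakdown genes stood to the 5 de novo pyrimidine genes at a ratio of 18.5, 19.1 and 13.9 in WT against 2.17, 2.66 and 1.56 in Vps15LKO livers, an 8.07-fold lower mean ratio, chosen after the values were seen and independent of the size factors.

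**Figure D4:**
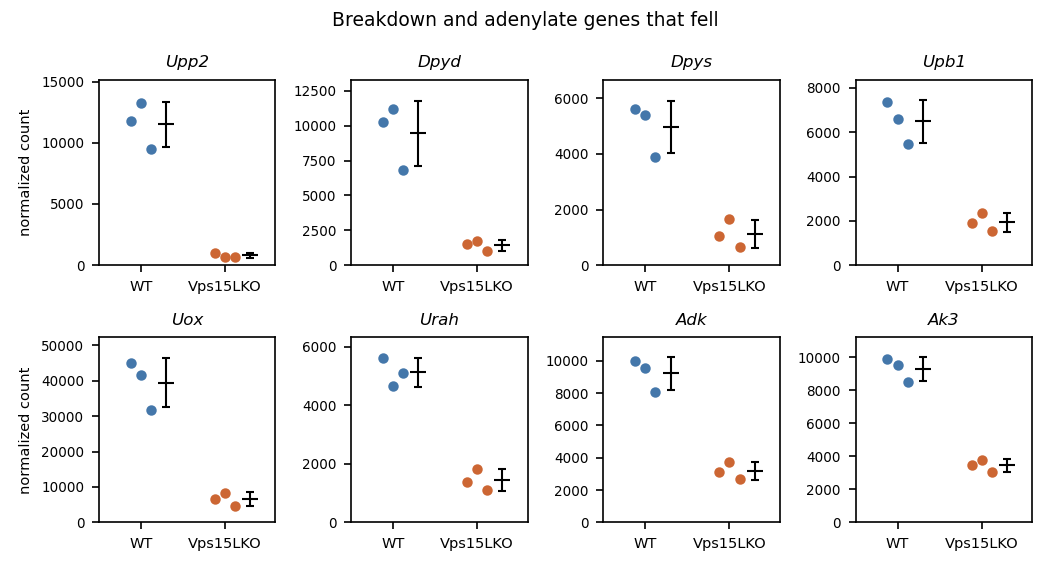
Normalized counts (y axis, from 0) of 4 pyrimidine breakdown genes (upper row) and of Uox, Urah, Adk and Ak3 (lower row) in each liver, with the mean and SD of 3 livers beside the points. In all 8 genes every Vps15LKO value lies below every WT value, and in 7 of them the second Vps15LKO liver plotted is the highest and the last is the lowest of its genotype.

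Uridine and cytidine salvage had 1 gene lower, 1 higher and 2 not called, beside 33.0% lower and 33.5% higher of all genes tested. With total-read scaling 1 was lower and 3 higher, beside 11.1% and 66.8%. Uck2 (0.73) and Uckl1 (0.77) were among these 3. Uck1, a uridine-cytidine kinase, had 566, 508 and 549 in WT against 209, 279.6 and 226 in Vps15LKO livers, in normalized counts (log2 fold change −1.19, standard error 0.13, adjusted p = 6.1e-05). Uck2 and the related Uckl1 had overlapping values, with 302, 309 and 260.2 in WT against 269, 267 and 339 in Vps15LKO livers for Uck2 and 375, 345 and 307 in WT against 331, 348 and 382 in Vps15LKO livers for Uckl1 (adjusted p = 0.99 and 0.72). Cda, the cytidine deaminase, had 143, 81.2 and 93.0 in WT against 241, 208 and 259.6 in Vps15LKO livers (log2 fold change 1.19, standard error 0.21, adjusted p = 0.0011).

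In deoxynucleotide salvage, the cytosolic Dck rose, Tk2 was not called, and the direction of Dguok depended on the scaling. Dck, the cytosolic deoxycytidine kinase, had 107, 98.7 and 112 in WT against 251, 248 and 231 in Vps15LKO livers, in normalized counts (log2 fold change 1.19, standard error 0.12, adjusted p = 3.9e-05). Dctd, the dCMP deaminase, was near the floor in WT liver, with 4, 1 and 2 reads in the WT libraries and 38, 30 and 47 in the Vps15LKO libraries, which correspond to 5.30, 1.25 and 2.70 in WT against 29.0, 24.3 and 33.2 in Vps15LKO livers, in normalized counts. The groups did not overlap, but Dctd passed the filter of 20 normalized counts only through the Vps15LKO livers, so its call is no support for a rise. Its fitted log2 fold change of 2.99 depends on the pseudocount and was 1.58 with a pseudocount of 10 and 1.19 with quantile normalization. Tk2, the mitochondrial thymidine kinase, had 477, 431 and 367 in WT against 351, 351 and 341 in Vps15LKO livers (adjusted p = 0.057), without overlap. It was called lower in edgeR (−0.29) and with quantile normalization (−0.31), and higher with total-read scaling (0.44). Dguok, the mitochondrial deoxyguanosine kinase, had 237, 227 and 190.1 in WT against 173, 179.9 and 161 in Vps15LKO livers and was called lower (log2 fold change −0.35, adjusted p = 0.038), but higher with total-read scaling (0.38), and with any of 5 livers left out it was not called (−0.38 to −0.28). Its call was also lost in DESeq2 (−0.35), with TMM (−0.30) and with upper-quartile scaling (−0.22). Of 9 other genes of ribonucleotide reduction and dTMP supply, 5 were higher and 2 lower, beside 33.5% and 33.0% of all genes tested, and with total-read scaling 7 were higher and 0 lower, beside 66.8% and 11.1%.

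Ratios of isozymes within a library do not depend on its size factor, and 9 pairs were compared. In 7 of the 9 pairs the per-liver ratios did not overlap between genotypes. For single genes tested the share was 73.2%, but those counts depend on the size factors. The share over ratios of other gene pairs was not computed. The exact permutation test (two-sided) gave p = 0.1 for each of these 7, the smallest that 3 livers against 3 allow, and 0.129 after adjustment over the 9 pairs, so no pair can pass 0.05. The Ampd2 to Ampd3 ratio per kb was 20.9, 16.6 and 18.8 in WT against 0.689, 0.966 and 0.754 in Vps15LKO livers, a 23.0-fold lower ratio, which brought the isozymes to similar levels. The Upp1 to Upp2 ratio was 0.0170, 0.0116 and 0.0112 in WT against 0.252, 0.374 and 0.442 in Vps15LKO livers, 26.3-fold higher, with Upp2 still the more abundant. For Impdh1 to Impdh2 it was 0.137, 0.130 and 0.165 in WT against 0.568, 0.571 and 0.712 in Vps15LKO livers, 4.23-fold higher. The Ctps to Ctps2 ratio was 0.486, 0.471 and 0.601 in WT against 1.03, 0.971 and 1.17 in Vps15LKO livers. For Adss to Adssl1 the ratio was 0.825, 0.707 and 1.54 in WT against 2.26, 2.13 and 2.46 in Vps15LKO livers, with WT replicate 3 apart from the other WT livers. Uck1 to Uck2 went down, at 3.72, 3.27 and 4.19 in WT against 1.55, 2.08 and 1.32 in Vps15LKO livers, and so did Prps1 to Prps2, at 3.43, 3.06 and 3.26 in WT against 2.17, 2.12 and 2.25 in Vps15LKO livers. The Ak3 to Ak4 ratio (exact permutation p = 0.2) and the Uck2 to Uckl1 ratio (exact permutation p = 0.6) overlapped.

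**Figure D5:**
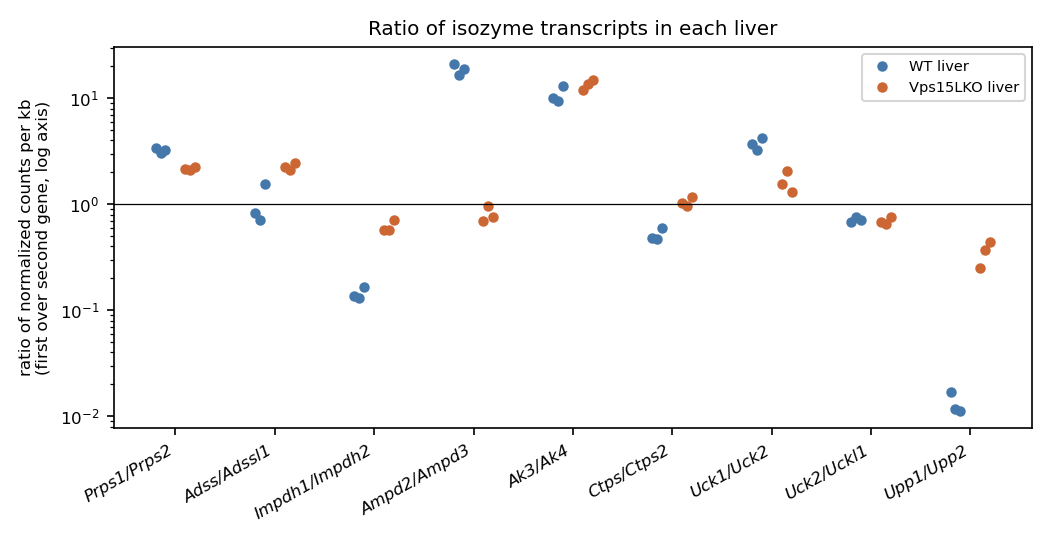
Ratio of normalized counts per kb of exon for 9 isozyme pairs (first over second gene, logarithmic y axis) in each WT and Vps15LKO liver. The widest separations are those of Ampd2/Ampd3 and Upp1/Upp2, and the Ak3/Ak4 and Uck2/Uckl1 points overlap.

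By normalized counts per kb, the order of the 48 genes in WT liver began with Uox, Urah, Ak3, Upp2 and Paics (7868, 3590.3, 2980.0, 1481 and 1428), and in Vps15LKO liver with Uox, Ak3, Urah, Paics and Hprt (1309, 1103, 1006, 568 and 565). Upp2 went from place 4 to 23, Dpyd from 8 to 18, Nt5e from 43 to 15 and Ampd3 from 47 to 21. Aprt went from 15 to 6. Uox was the highest in both genotypes.

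All 10 hepatocyte markers were highest in Vps15LKO replicate 2, intermediate in replicate 1 and lowest in replicate 3, which is also the order that the size factors give to a gene with equal reads in these libraries. Of the 20 nucleotide genes called lower 13 had this order, a share of 65%, beside 53% of all genes called lower and 28.3% of all genes tested. Of the 14 called higher 1 had it, beside 11.3% of all genes called higher. Scaled by total reads, 7 of the 10 markers and 7 of the 20 lower genes had it, the latter 35%, beside 30.5% of all genes called lower. The 20 nucleotide genes that fell were thus near the share of all fallen genes. Of the 13 with a log2 fold change under −1, 10 had the order (76.9%), and 7 (53.8%) when scaled by total reads. The share over all genes that fell this far was not computed. Beside the median hepatocyte marker (−1.67), 7 of the 48 genes fell by more, and beside the marker with the largest fall, Cyp2e1 (−3.47), 1 did, Upp2. Whether the falls follow the hepatocyte share was not tested.

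A list of 66 other nucleotide genes, made of kinases, nucleotidases, end steps, transporters and the genes of ribonucleotide reduction and dTMP supply given above, had 54 tested genes, of which 19 were lower and 18 higher, beside 33.0% and 33.5% of all genes tested. Of the 18, Ak1 and Slc28a2 passed the filter only through the Vps15LKO livers. Slc29a2 reached 20 normalized counts in only 1 WT liver and so needed the Vps15LKO livers too. It had 22.5, 13.7 and 13.5 in WT against 35.9, 37.3 and 39.6 in Vps15LKO livers. Scaled by total reads, 12 were called lower and 33 higher, beside 11.1% and 66.8%. By group, all 4 tested genes of uric acid and breakdown end steps were lower (3 with total-read scaling), and the 10 tested transporters split into 6 lower and 4 higher (5 and 4). Of the 18 tested kinases and interconversion enzymes 5 were lower and 4 higher (2 and 12), and of the 13 tested nucleotidases and ectonucleotidases 2 were lower and 5 higher (2 and 10). Among genes with a mean of 50 normalized counts or more, the 4 largest falls included Slc22a7, an organic anion transporter, at 772, 747 and 2017 in WT against 89.3, 228 and 51.6 in Vps15LKO livers, in normalized counts (log2 fold change −3.36, adjusted p = 0.00064), with WT replicate 3 well above the other WT livers. Tymp, the thymidine phosphorylase, had 4006, 3586 and 3517 in WT against 777, 1062 and 649 in Vps15LKO livers (log2 fold change −2.18, adjusted p = 1.1e-05), although 42.0% of its exons are shared with Sco2. Slc17a3, a urate and phosphate transporter, had 1127, 988 and 1269.8 in WT against 268, 344 and 175 in Vps15LKO livers (log2 fold change −2.14, adjusted p = 5.5e-05), and Urad, given above, was the other. The 4 largest rises under the same limit were those of Entpd2, Cmpk2, Nt5c3b and Entpd1. Ak1, an adenylate kinase with a mean just below that limit, had 1.33, 7.49 and 10.8 in WT against 70.3, 72.1 and 131 in Vps15LKO livers and is named after its values were seen. It passed the filter only through the Vps15LKO livers, had at most 8 reads in a WT library, and its fitted log2 fold change of 3.84 was 3.14 without WT replicate 1. Entpd2, an ectonucleotidase that removes phosphate from ATP upstream of Nt5e, had 79.6, 91.2 and 99.8 in WT against 845, 791 and 938 in Vps15LKO livers (log2 fold change 3.24, adjusted p = 4.4e-07), with 28.8% of its exons shared with Npdc1. Entpd1, the ectonucleotidase CD39, had 105, 152 and 116 in WT against 551, 538 and 541 in Vps15LKO livers (log2 fold change 2.14, adjusted p = 6.5e-06). Cmpk2, a mitochondrial UMP-CMP kinase that interferon induces, had 159, 164 and 198 in WT against 964, 981 and 784 in Vps15LKO livers (log2 fold change 2.38, adjusted p = 2.2e-06). Nt5c3b, a cytosolic nucleotidase, had 38.5, 58.7 and 59.3 in WT against 234, 245 and 261 in Vps15LKO livers (log2 fold change 2.25, adjusted p = 1.7e-05). Other ectonucleotidases, named after their values were seen, went the other way without overlap. Entpd8 had 1787, 1646 and 1561 in WT against 501, 692 and 373 in Vps15LKO livers (log2 fold change −1.71, adjusted p = 9.3e-05), and Enpp3 had 1721, 1620.1 and 1316 in WT against 636, 728 and 528 in Vps15LKO livers (log2 fold change −1.30, adjusted p = 8.0e-05). The summed stellate, cholangiocyte and macrophage markers rose beside Entpd1, Entpd2 and Nt5e, with the levels given above. Of the 11 macrophage markers, 9 were higher, 1 lower and 1 not called. The part of these cells was not tested.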

How the data were processed

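Per the labels, poly(A) RNA from liver went through a library preparation that marks strand. Per the study's methods, reads were filtered with SOAPnuke, mapped to GRCm38/mm10 with HISAT2 and counted per gene with featureCounts. Versions, the strand setting and the handling of multi-mapped reads are not given in the sources used here. The deposited signal values are counts that the authors divided by 1 DESeq2 size factor per library. Whole reads were recovered from 100% of the values above 0 (tolerance 0.001), and 0 columns were left unused.

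Genes reaching 20 normalized counts in 3 or more of the 6 livers were tested with limma 3.58.1 in R 4.3.3 (linear model, empirical Bayes with a trend) on log2(value + 1), with Benjamini-Hochberg adjustment. The script was tested on simulated data. Isozyme ratios were tested by exact permutation over livers (scipy 1.17.1). Alternatives were other pseudocounts, no filter, no fold threshold, 3 library scalings, quantile normalization, limma voom, a replicate block, each liver left out, and DESeq2 1.42.0 and edgeR 4.0.16 (10320 genes called) on the recovered reads.

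The 48 genes and all lists were chosen with earlier results of these data known. All 48 are named. Of the other nucleotide genes, the 4 largest rises and falls are named, provided they were called, averaged 50 normalized counts or more and did not overlap between genotypes, with Pik3r4 as the targeted gene. Exon lengths and overlaps are from GENCODE M21, promoter windows from RefSeq.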

Additional observations from a re-analysis of the deposited data

How the results depend on the processing

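Of the 48 genes, 24 kept both direction and side of the threshold in all 18 alternatives, and 30 kept the direction. Total-read scaling moved the counts of called genes from 20 lower and 14 higher to 12 and 30, and those of the other nucleotide genes from 19 and 18 to 12 and 33. It turned the log2 fold change of Prps1 (0.21), Gart (0.43), Impdh2 (0.46), Ada (0.54), Pnp (0.68), Xdh (0.52), Ampd2 (0.13), Guk1 (0.44), Cmpk1 (0.57), Dhodh (0.44), Umps (0.60), Tk2 (0.44) and Dguok (0.38) to positive. Quantile normalization turned Prps2 (−0.0366), Pfas (−0.30), Pnp (0.25), Xdh (0.39), Cmpk1 (0.0888), Uck2 (−0.0902) and Uckl1 (−0.00304), and upper-quartile scaling turned Pnp (0.0818) and Umps (0.000571). Total-read scaling does not use the size factors, which differ between genotypes, and the cause of the other changes was not tested. With 1 liver left out at a time, 17 to 21 genes were lower and 12 to 14 higher, 19 to 20 and 16 to 19 among the other nucleotide genes. The log2 fold changes of 7 genes changed sign in this way. Prps2 ranged from −0.0244 to 0.13, Pfas from −0.0408 to 0.13, Hprt from −0.0197 to 0.102, Ada from −0.38 to 0.0756, Pnp from −0.12 to 0.0400, Uck2 from −0.11 to 0.0612 and Uckl1 from −0.0268 to 0.12. The changes came without WT replicate 1 (Pfas, Ada, Pnp), WT replicate 3 (Prps2, Uck2, Uckl1), Vps15LKO replicate 1 (Hprt, Pnp) or Vps15LKO replicate 3 (Uck2, Uckl1). Of these genes, 0 were called in the main comparison. The difference of log2 fold changes, Uck2/Uckl1, an isozyme pair whose ratios overlapped between genotypes, ranged from −0.10 to 0.00142, the latter without Vps15LKO replicate 2, and the ranges of the other 8 pairs kept their sign.

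Livers with the same replicate number did not visibly deviate together (correlations −0.01, −0.01 and 0.05 over genes, beside −0.06 to 0.09 for different numbers). With 3 livers per genotype, these values cannot exclude a pairing. A fit with the replicate number as a block gave 19 genes lower and 14 higher, losing the call of Impdh2. Groups of 3 livers give the exact permutation test no p below 0.1, and genes near 20 normalized counts, such as Dctd, rest on few reads.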
